A study of Mus musculus with 8 samples.

Results

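Integrins, other laminin or matrix receptors and their cytoskeletal anchors are described here through 10 mouse genes. The genes were chosen by name, with earlier results of these data known. They are the alpha chains Itga7, Itga6, Itga3, Itga5 and Itgav, the beta chains Itgb1 and Itgb5, the laminin receptor Bcam, and the anchors Vcl and Plec. All 10 were among the 23008 mouse genes of the deposited table, matched by mouse Ensembl identifier, and all 10 passed the minimum for testing, a mean of at least 10 normalised reads.

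Muscle fibres hold on to the surrounding basement membrane through integrins, receptors made of an alpha and a beta chain that bind matrix outside the cell and the actin cytoskeleton inside it. The pair of Itga7 with Itgb1 is the main laminin-binding integrin of adult skeletal muscle and is concentrated at the ends of fibres and at neuromuscular junctions; in humans, loss of ITGA7 causes a congenital myopathy. Itga3 and Itga6 encode other laminin-binding alpha chains, Itga5 and Itgav encode chains that bind fibronectin, vitronectin and other proteins with an arginine-glycine-aspartate motif, and Bcam encodes an immunoglobulin-family receptor for laminin with the alpha-5 chain.

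RNA was sequenced from gastrocnemius, a calf muscle, of wild-type C57BL/6J mice given AAV9 into the tail vein. The virus carried the GNDM epigenome editing construct with guide m31, which targets Lama1 (4 libraries), or with a non-targeting control guide (4 libraries), so the control muscle also held virus and construct. Muscle was taken 11 weeks later. Age when injected is stated as 7 weeks with the samples and as 7 to 12 weeks in the series' design text. The labels give neither the dose, nor the promoter that drives the construct, nor whether libraries and animals match 1 to 1, and the tests below therefore weigh differences against a library-to-library spread that could be partly technical.

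Reads in mouse genes numbered 34142447 to 37792459 per m31 library and 25157486 to 39210248 per control library. Lama1, the laminin alpha-1 chain gene that m31 targets, was read at 209, 295, 273 and 86.5 (normalised) in m31 replicates 1 to 4, and at 4.18, 0, 2.25 and 0 in control replicates 1 to 4. A normalised read is a read count divided by 1 factor per library. All 8 skeletal muscle fibre markers were detected, their summed level spanning 4183809 to 4816620 in m31 libraries and 3903084 to 5364256 in control libraries; all 8 had negative estimates, with a median log2 difference of -0.12. Of the marker lists for other cell types, tendon reached 28612 and macrophages 4615 in m31 replicate 4, against 11872 to 19457 and 1834 to 2475 in the other m31 libraries. Control libraries had 7250.3 to 14546 for tendon and 1394 to 3088 for macrophages, the upper end of both in control replicate 3. The GNDM transcript of the construct stood at 6156.91 normalised reads in m31 replicate 4, the lowest of the 8 libraries, and at 37988.7 in control replicate 3, the highest. All 6 tendon, all 6 macrophage and all 6 fibro-adipogenic progenitor markers had positive estimates (medians 0.64, 0.61 and 0.29), and all 6 Schwann cell markers negative ones (median -0.36). The summed progenitor markers spanned 14744 to 24506 in m31 libraries, highest in replicate 4, and 13416 to 22086 in control libraries, highest in replicate 3. Signs were mixed in the other lists. Endothelial markers had 5 positive and 1 negative estimate (median 0.06), and so did pericyte and smooth muscle markers (median 0.25). Satellite cell markers had 4 positive and 1 negative (median 0.06). None of the markers in these 8 lists passed the threshold.

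None of the 10 receptor and anchor genes differed between m31 and control muscle past an adjusted p of 0.05. The Lama1 ligand gene itself was called, at a 97.0-fold difference, which gives no measure of the power to find small differences. In limma's fit 0 of 10 passed; over all 15960 genes tested, 0.00627% did. Counted without adjustment, 0 of 10 had p under 0.05, against 6.79% of all genes. For 0 of 10 did the libraries of the m31 and control groups stay apart, against 3.85% of all genes. On the recovered whole reads, edgeR called 0 of the 10 (0.00618% of all genes) and DESeq2 0 of the 10 (0.164% of all genes). Estimates split evenly, 5 positive and 5 negative, with a median log2 difference of -0.0023 beside 0.0052 over all genes. Their median size regardless of sign was 0.07 on the log2 scale, beside 0.12 over all genes. The median standard error was 0.13 for the 10 genes and 0.15 over all genes, which were not matched to them for abundance.

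The intervals bound how large an undetected difference could be. Standard errors of the log2(value + 1) differences ran from 0.07 for Itgb5 to 0.18 for Itga5. All 10 limma 95% intervals lay within 1.5-fold in either direction, and those of 4 genes (Itga7, Itga6, Itgb1 and Itgb5) within 1.25-fold. Across the 10 genes the lowest bound was 0.676-fold, for Plec, and the highest 1.41-fold, for Itga5 and Vcl. Each interval is for 1 gene and was not widened for the number of genes. A gene's reads ranged from 187 for Itga3 to 43501 for Plec in a library.

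**Figure D1:**
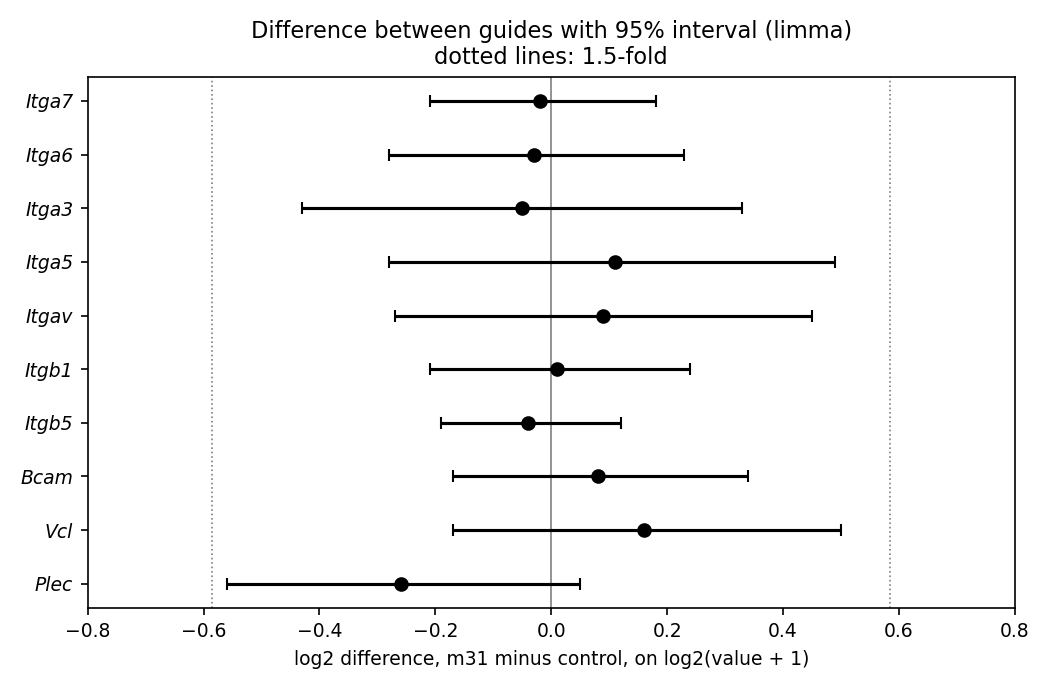
Log2 difference, m31 minus control, of the 10 receptor and anchor genes, computed from log2(value + 1), drawn with the 95% interval from limma; dotted lines mark 1.5-fold. All 10 intervals include 0 and stay inside the dotted lines, Plec sitting furthest to the left at -0.26.

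Among the laminin-binding alpha chains, Itga7 (ENSMUSG00000025348; GENCODE, build GRCm38, chromosome 10, 128933818 to 128958282, plus strand) had 3285, 3328, 2724 and 2898 normalised reads in m31 replicates 1 to 4, and 3223, 3271, 3029 and 2828 in control replicates 1 to 4. The groups overlapped almost fully. The means were 3059 ± 295 with m31 and 3088 ± 203 with the control guide (SD, n = 4 each). This gave a log2 difference of -0.02 ± 0.09 (SE), that is 0.989-fold with a 95% interval of 0.863 to 1.13. Limma's adjusted p over all genes was 0.978.

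Itga6 (ENSMUSG00000027111; chromosome 2, 71745616 to 71858416, plus strand), whose product binds several laminins in epithelia, vessels and nerve, had 919, 796, 1071 and 890.2 normalised reads in m31 replicates 1 to 4, and 998, 879.5, 1059.8 and 810.2 in control replicates 1 to 4. Replicate 3 was the highest library of both groups, and the values interleaved. Itga6 had a log2 difference of -0.03 ± 0.12 (fold 0.981, interval 0.822 to 1.17). Itga3 (ENSMUSG00000001507; chromosome 11, 95044474 to 95076801, minus strand), a receptor chain best known from kidney, lung and skin basement membrane, was the scarcest of the 10 genes. It had 277, 395, 290.4 and 227 normalised reads in m31 replicates 1 to 4, and 290.4, 323, 355 and 249 in control replicates 1 to 4. Both extremes were m31 libraries, replicate 2 at the top and replicate 4 at the bottom, and the log2 difference was -0.05 ± 0.17 (fold 0.966, interval 0.744 to 1.25).

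Of the alpha chains for fibronectin and related ligands, Itga5 (ENSMUSG00000000555; chromosome 15, 103344286 to 103366763, minus strand), the classical fibronectin receptor chain, had 376, 432, 555 and 617 normalised reads in m31 replicates 1 to 4, and 393, 505, 554 and 377 in control replicates 1 to 4. It was highest in m31 replicate 4, the library with the highest tendon and macrophage marker sums; the part of those cells in the Itga5 value was not tested. In bulk RNA, a change in the number of cells of a type and a change in RNA per cell cannot be told apart. For Itga5 the log2 difference was 0.11 ± 0.18 (fold 1.08, interval 0.823 to 1.41), and -0.01 with m31 replicate 4 left out.

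Itgav (ENSMUSG00000027087; chromosome 2, 83724397 to 83806916, plus strand), the alpha chain that pairs with several beta chains including Itgb5, had 969.6, 1014, 982 and 1006 normalised reads in m31 replicates 1 to 4, and 804, 683, 1226 and 1129 in control replicates 1 to 4. All m31 values fell in the gap between the lower and the upper pair of control libraries. The SD was 20.5 with m31 and 258 with the control guide, or 2.07% and 26.9% of the mean; this difference in spread was seen in the values and not tested. For Itgav the log2 difference was 0.09 ± 0.16 (fold 1.06, interval 0.827 to 1.37).

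**Figure D2:**
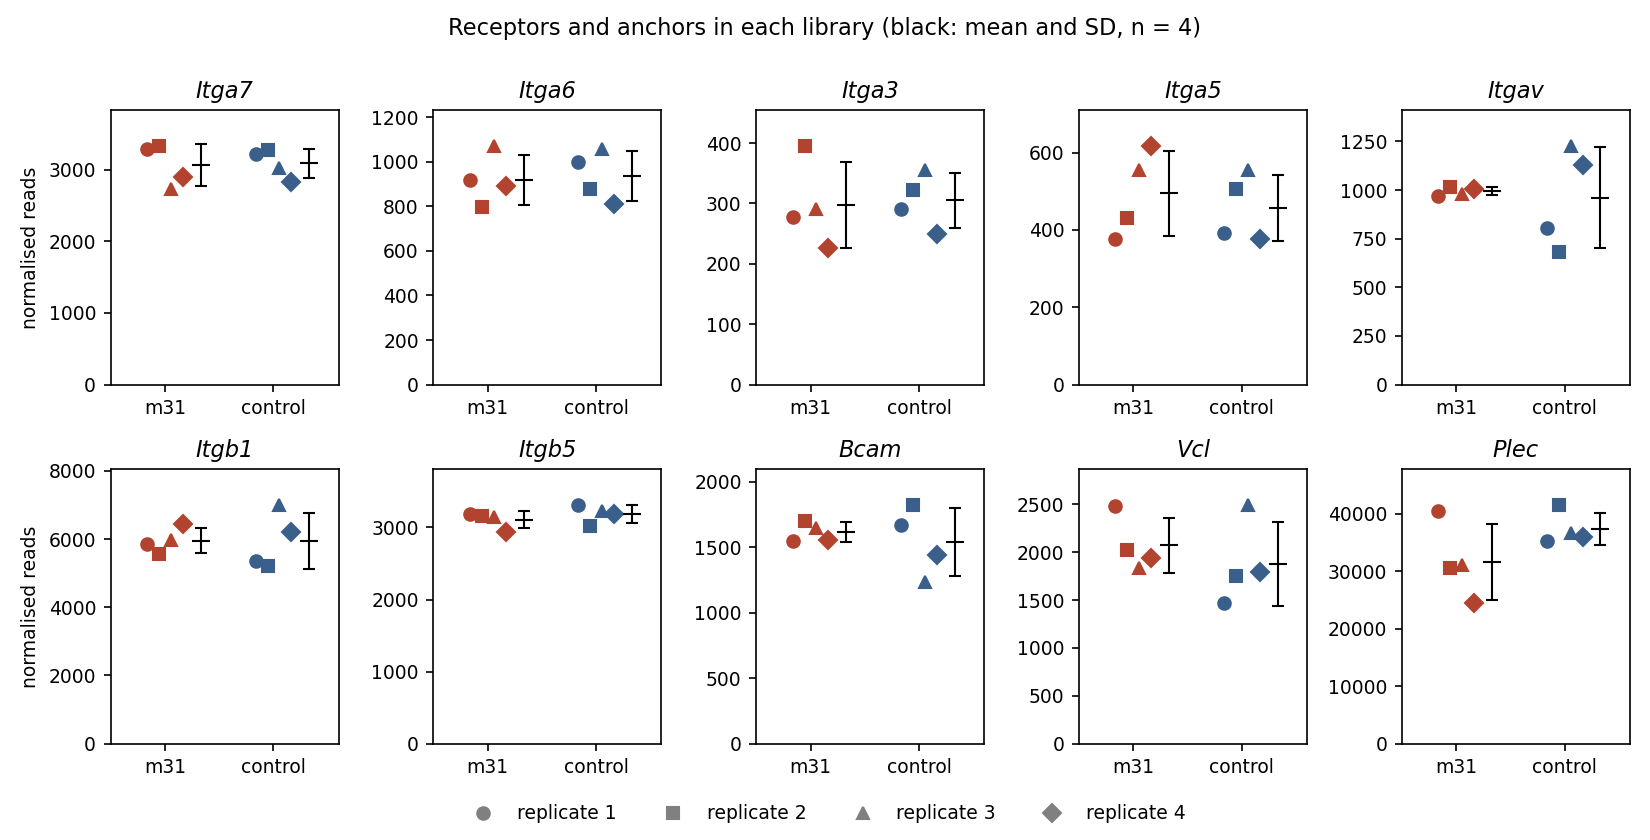
Normalised reads of the 10 genes in each library, m31 left of control, with the marker shape giving the replicate number and black bars the mean and SD (n = 4 each); each panel has its own axis from 0. The m31 and control points overlap in every panel, and the 4 m31 values of Itgav lie close together at 969.6 to 1014.

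Itgb1 (ENSMUSG00000025809; chromosome 8, 128685654 to 128733200, plus strand) encodes the common beta chain, with which the products of Itga3, Itga5, Itga6, Itga7 and Itgav pair. It had 5859, 5559, 5976 and 6433 normalised reads in m31 replicates 1 to 4, and 5369, 5208, 6996 and 6198 in control replicates 1 to 4. The m31 values lay inside the control range. Itgb1 gave a log2 difference of 0.01 ± 0.10 (fold 1.01, interval 0.863 to 1.18). Itgb5 (ENSMUSG00000022817; chromosome 16, 33829665 to 33949338, plus strand), the partner of Itgav in a vitronectin receptor, was the steadiest of the 10 genes, with a 1.13-fold range over the 8 libraries. It had 3191, 3157, 3148 and 2931 normalised reads in m31 replicates 1 to 4, and 3309, 3023, 3227 and 3181 in control replicates 1 to 4. Only m31 replicate 4 fell below all control libraries, and the log2 difference was -0.04 ± 0.07 (fold 0.975, interval 0.877 to 1.08).

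Bcam (ENSMUSG00000002980; chromosome 7, 19756131 to 19771016, minus strand) had 1545, 1704, 1651 and 1558 normalised reads in m31 replicates 1 to 4, and 1667, 1822, 1232 and 1444 in control replicates 1 to 4. Control replicate 3, at the upper end for several integrin chains, was the lowest library for Bcam. Its log2 difference was 0.08 ± 0.12 (fold 1.06, interval 0.887 to 1.26) and turned to -0.02 without that library. Lama5, which encodes the laminin chain that Bcam binds, had 2276, 1663, 1405 and 1575 normalised reads in m31 replicates 1 to 4, and 1920, 2556, 1693 and 1380.5 in control replicates 1 to 4.

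The anchors gave the largest estimates in both directions. Plec (ENSMUSG00000022565; chromosome 15, 76170974 to 76232574, minus strand) encodes plectin, a giant linker between intermediate filaments and membrane attachment sites, mutated in human muscular dystrophy with skin blistering. It had 40519, 30551, 31029 and 24556 normalised reads in m31 replicates 1 to 4, and 35349, 41496, 36704 and 35954 in control replicates 1 to 4. In m31 replicates 2, 3 and 4 it was below all control libraries, while m31 replicate 1 exceeded all but control replicate 2. The means were 31664 ± 6597 with m31 and 37376 ± 2802 with the control guide (SD, n = 4 each).

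For Plec the log2 difference was -0.26 ± 0.14 (fold 0.835, interval 0.676 to 1.03), with limma's unadjusted p = 0.0877 and adjusted p = 0.775. Its exact two-sided permutation test gave p = 0.114, where 0.0286 is the smallest value the 70 arrangements allow. Leaving out 1 library at a time moved the log2 difference between -0.39 and -0.14. The estimate was closest to 0 without m31 replicate 4, which also had the lowest Plec value. Parp10 lies on the same strand and shares 205 of the 18113 exon bases of Plec in the GENCODE annotation; it averaged 224 normalised reads in m31 muscle and 240.1 in control muscle.

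Vcl (ENSMUSG00000021823; chromosome 14, 20929398 to 21033676, plus strand) encodes vinculin, which binds talin and actin at adhesions and at the costameres that tie the sarcomeres to the membrane. It had 2486, 2019.8, 1839 and 1943 normalised reads in m31 replicates 1 to 4, and 1469, 1750.4, 2490.5 and 1792 in control replicates 1 to 4. All m31 libraries exceeded control replicates 1, 2 and 4, and none exceeded control replicate 3. The log2 difference was 0.16 ± 0.15 (fold 1.12, interval 0.886 to 1.41; limma's adjusted p = 0.874).

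Without control replicate 3 the Vcl difference was 0.31, with limma's adjusted p = 0.366. It was 0.05 without control replicate 1 and 0.07 without m31 replicate 1. Each of these omissions moved the estimate by more than 1.5 times, in either direction, without ending or making a call. Ap3m1, on the opposite strand, shares 2090 of the 8191 annotated exon bases of Vcl, and the strand setting of the counting is not given in the sources used here, so reads of the 2 genes may not be fully separated. Ap3m1 averaged 708 normalised reads in m31 muscle and 716 in control muscle.

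Vcl, Itgav and Itgb1 were the 3 genes with their highest value in control replicate 3, and their promoters were picked for display by those values. That library was also above the gene's mean for Itga3 (0.26), Itga5 (0.24), Itga6 (0.20), Plec (0.11) and Itgb5 (0.04), in log2 units. For Bcam (-0.35) and Itga7 (-0.02) it was below the mean. No link between these sequences and that library was tested. Promoter sequences from RefSeq (build GRCm38.p6), from 250 bases before to 50 bases after the annotated start, were found for 7 of the 10 genes. Capitals mark the GC box GGGCGG on either strand and the CArG box, the binding motif of serum response factor; GC boxes may overlap each other.
Vcl, chr14:20929148-20929447, plus strand: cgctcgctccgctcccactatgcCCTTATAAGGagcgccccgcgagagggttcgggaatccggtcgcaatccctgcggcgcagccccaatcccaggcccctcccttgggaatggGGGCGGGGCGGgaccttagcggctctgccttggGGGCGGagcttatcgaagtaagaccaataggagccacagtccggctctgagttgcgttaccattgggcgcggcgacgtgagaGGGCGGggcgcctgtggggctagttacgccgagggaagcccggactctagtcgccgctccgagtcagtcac
Itgav, chr2:83724147-83724446, plus strand: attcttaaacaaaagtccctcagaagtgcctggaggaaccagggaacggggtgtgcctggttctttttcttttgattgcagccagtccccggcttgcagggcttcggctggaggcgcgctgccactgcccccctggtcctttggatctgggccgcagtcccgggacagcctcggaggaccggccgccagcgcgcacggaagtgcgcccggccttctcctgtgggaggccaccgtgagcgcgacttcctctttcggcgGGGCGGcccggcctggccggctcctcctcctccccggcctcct
Itgb1, chr8:128685404-128685703, plus strand: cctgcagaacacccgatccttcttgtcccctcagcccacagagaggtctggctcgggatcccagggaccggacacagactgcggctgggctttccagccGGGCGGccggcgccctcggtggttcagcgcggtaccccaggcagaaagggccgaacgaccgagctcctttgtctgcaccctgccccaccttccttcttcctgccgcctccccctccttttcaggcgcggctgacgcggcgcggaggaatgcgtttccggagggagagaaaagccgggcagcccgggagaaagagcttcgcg
The Vcl window held 4 GC boxes and 1 CArG box, and the windows of Itgav and Itgb1 held 1 GC box each and no CArG box. Of 32851 promoter windows of the same length, 35.7% held GGGCGG and 1.63% held a CArG box. These matches describe the letters and were not tested for binding.

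**Figure D3:**
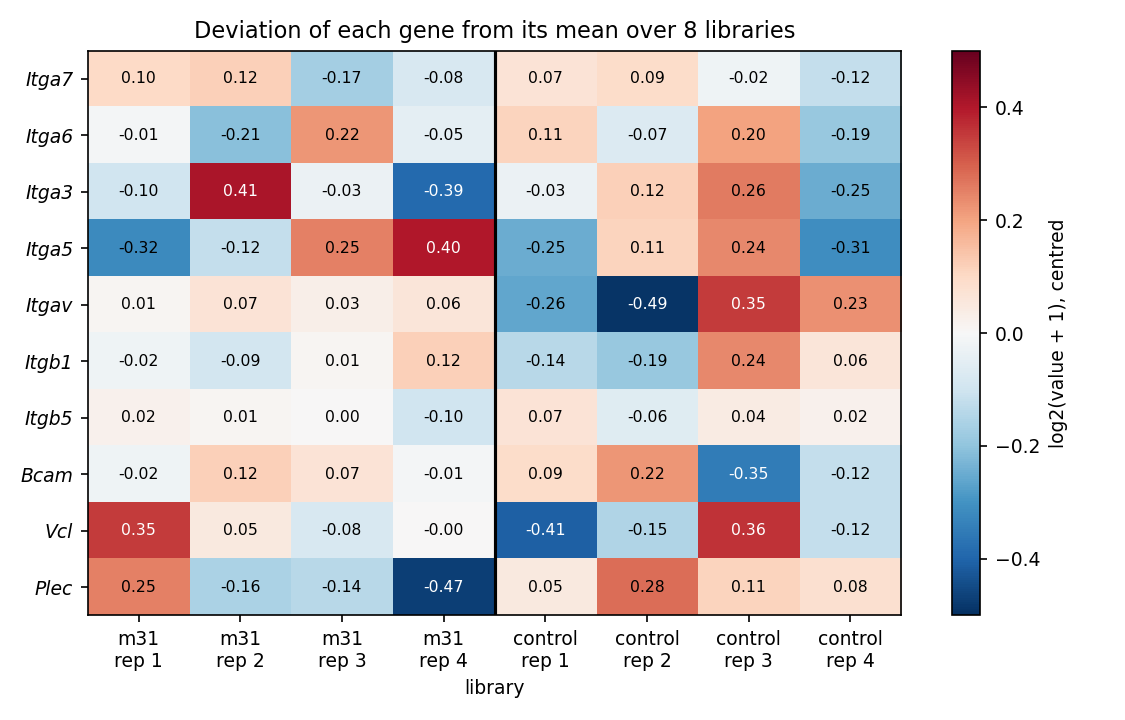
Deviation of each gene from its mean over the 8 libraries, on the log2(value + 1) scale, with m31 libraries left of the black line and control libraries right of it. Control replicate 3 is red for Vcl (0.36), Itgav (0.35), Itga3 (0.26), Itgb1 (0.24), Itga5 (0.24) and Itga6 (0.20) but blue for Bcam (-0.35). In m31 replicate 4, Plec is blue (-0.47) and Itga5 red (0.40).

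No library was high or low for the whole set. Control replicate 3 held the highest value for 3 of the 10 genes and the lowest for 1, and m31 replicate 4 held the highest for 1 and the lowest for 3. The median deviation of the 10 genes, in log2 units, was 0.22 in control replicate 3 and -0.12 in control replicate 4, and between -0.03 and 0.03 in the other 6 libraries. Lama1 was lowest among m31 libraries in replicate 4, at 86.5 normalised reads, where Plec was lowest and Itga5 and Itgb1 were highest within the group. Control replicate 3 had the highest GNDM transcript level and m31 replicate 4 the lowest, and each had the highest tendon and macrophage marker sums of its group; the part of these in the values of the 10 genes was not tested. With 4 m31 libraries no relation between Lama1 and these genes was tested.

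Levels were compared between genes per kilobase of merged annotated exons, since longer transcripts yield more reads. Over the 8 libraries Plec averaged 1906 normalised reads per kb, Itgb1 1458, Itgb5 885 and Bcam 493. Itga7 followed at 379.8, Vcl at 241, Itga6 at 103, Itga5 at 96.5, Itgav at 90.9 and Itga3 at 52.7. Neighbours whose ranges over the libraries overlapped were Plec and Itgb1, Bcam and Itga7, and the run from Itga6 through Itga5 and Itgav to Itga3. When the length of the longest coding transcript was used instead, Itga7 (764) moved above Bcam (649.6) and Itgav (138) above Itga5 (109).

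**Figure D4:**
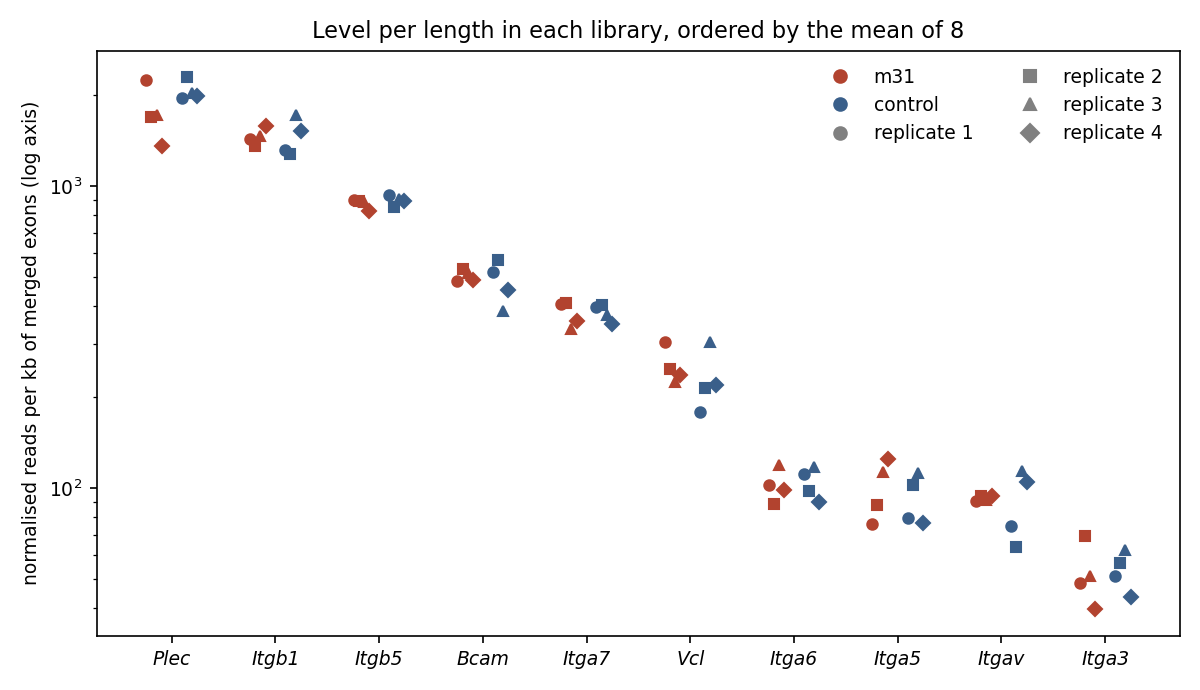
Normalised reads per kb of merged annotated exons in each library, on a log axis, with genes ordered by their mean over the 8 libraries and m31 left of control for each gene. Plec and Itgb1 lie at the top with means of 1906 and 1458, and the 4 alpha chains other than Itga7 lie at or below 125 in all libraries.

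Among the 5 alpha chains, Itga7 had the largest share of the level per kb. Its share was 52.1 ± 4.08% with m31 (47.4 to 56.2%) and 53.0 ± 3.70% with the control guide (48.0 to 55.8%; SD, n = 4 each). It was below 50% in m31 replicate 3 and control replicate 3. The shares of Itga6 were 14.1 ± 2.04% in m31 muscle and 14.4 ± 1.04% in control muscle, and those of Itga5 13.9 ± 3.31% in m31 muscle and 12.8 ± 1.70% in control muscle. Itgav had 12.8 ± 0.282% in m31 muscle and 12.4 ± 3.34% in control muscle, and Itga3 7.16 ± 1.53% in m31 muscle and 7.37 ± 0.65% in control muscle. By the longest coding transcript the share of Itga7 was 58.5 ± 3.94% with m31 and 59.2 ± 3.52% with the control guide.

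The balance between chains was compared through 5 ratios of normalised reads, which do not depend on the library factor. None passed the exact two-sided permutation test over the 70 arrangements, with p-values from 0.114 to 0.914 and adjusted p over the 5 ratios from 0.571 to 0.914. The ratio of Itga7 to Itgb1, the chains of the main muscle laminin integrin, was 0.561, 0.599, 0.456 and 0.45 in m31 replicates 1 to 4, and 0.6, 0.628, 0.433 and 0.456 in control replicates 1 to 4. Its log2 difference was -0.03 ± 0.17 (SE). Values of the groups interleaved, the lowest and the highest both being control libraries.

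Reads of Itga3, Itga6 and Itga7 together were 2.90 ± 0.399 times those of Itga5 plus Itgav with m31, and 3.15 ± 0.710 times under the control guide (mean of ratios ± SD, n = 4 each), a log2 difference of -0.10 ± 0.19. That difference was -0.01 without control replicate 1 or control replicate 2, -0.03 without m31 replicate 4 and -0.21 without control replicate 3. The ratio of Itga7 to Itga6 averaged 3.39 ± 0.682 in m31 muscle and 3.32 ± 0.370 in control muscle, and that of Itgb5 to Itgb1 0.524 ± 0.0484 in m31 muscle and 0.543 ± 0.0691 in control muscle. The widest difference was in the ratio of Vcl to Plec, at 0.0614, 0.0661, 0.0593 and 0.0791 in m31 replicates 1 to 4, and 0.0416, 0.0422, 0.0679 and 0.0498 in control replicates 1 to 4. That ratio sets the receptor or anchor gene with the highest log2 difference (Vcl, 0.16) against the one with the lowest (Plec, -0.26). Its width therefore restates those estimates and is no separate finding. The ratios were chosen with earlier results of these data known. Control replicate 3 was the one control library inside the m31 range of the ratio of Vcl to Plec. The log2 difference was 0.42 ± 0.19 (exact permutation p = 0.114, adjusted p = 0.571), and 0.57 without control replicate 3 (exact permutation p = 0.0286, adjusted p = 0.143). Leaving out that library separates the groups fully, which fixes the permutation p at the smallest possible there. With any other single library left out, the log2 difference was 0.33 to 0.47 (exact permutation p from 0.114 to 0.2).

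Of 69 tested genes in 7 lists of related chains, adapters and ligands, 1 passed limma's threshold over all genes, higher with m31 (0.00627% of all genes passed in that direction), and 0 passed lower. That gene was Lama1. Of the 69, 5 had an unadjusted p under 0.05 (6.79% of all genes). In what follows, a pair of values after "1 left out" gives the lowest and the highest log2 difference, or list median, when each of the 8 libraries was left out in turn.

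Other integrin alpha chains had 9 positive and 2 negative estimates among 11 tested, 0 past the threshold, with a median log2 difference of 0.25 beside 0.0052 over all genes. The median was 0.12 without m31 replicate 4 (8 positive, 3 negative) and 0.45 without control replicate 3. For 6 of the 11 chains the highest value was in m31 replicate 4, which had the highest tendon and macrophage marker sums; the part of those cells was not tested. Itga1, a collagen receptor chain and the most abundant of these by reads, averaged 625 ± 24.0 normalised reads in m31 muscle and 623 ± 73.4 in control muscle (log2 difference 0.01; 1 left out, -0.06 and 0.07). The largest positive estimate was for Itgal, a leukocyte integrin chain, with 39.9, 52.1, 50.1 and 91.3 in m31 replicates 1 to 4, and 7.53, 27.7, 69.7 and 33.3 in control replicates 1 to 4 (log2 difference 1.03 ± 0.53, limma's adjusted p = 0.769). It was 0.46 without control replicate 1 and 1.48 without control replicate 3. The largest negative one, for Itga9 (-0.16), turned to 0.03 without control replicate 3.

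Of 6 other beta chains, 4 had positive and 2 negative estimates, with a median of 0.14, which was -0.05 without m31 replicate 4 (2 positive, 4 negative). Itgb2, the beta chain shared by leukocyte integrins, had 117, 128, 122 and 284 normalised reads in m31 replicates 1 to 4, and 71.1, 95.4, 202 and 76.0 in control replicates 1 to 4 (log2 difference 0.57 ± 0.36). Its highest library in each group was also the one with the highest macrophage marker sum, m31 replicate 4 (4615) and control replicate 3 (3088); the part of those cells in the Itgb2 value was not tested. Without m31 replicate 4 the log2 difference was 0.27, without control replicate 3 it was 0.90, and without both 0.60. Itgb6, the most abundant of these beta chains by reads, averaged 611 ± 127 normalised reads in m31 muscle and 749.9 ± 181 in control muscle (log2 difference -0.29 ± 0.19; 1 left out, -0.43 and -0.16, the value nearest 0 being without control replicate 2).

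Focal adhesion adapters and kinases, which couple integrin tails to actin, had 15 positive and 7 negative estimates among 22 tested, 0 past the threshold, with a median of 0.03 (1 left out, -0.01 without control replicate 1 and 0.09 without control replicate 3). Tln2, the talin of striated muscle that activates integrins and recruits vinculin, had 5374, 5076, 4427 and 3468 normalised reads in m31 replicates 1 to 4, and 6022, 5361, 7407 and 5358 in control replicates 1 to 4. Only m31 replicate 1 reached the control range. The log2 difference was -0.40 ± 0.15, with limma's unadjusted p = 0.0194 and adjusted p = 0.698 (1 left out, -0.49 and -0.28). Without both m31 replicate 4 and control replicate 3, an alternative chosen after seeing the data, it was -0.17. Flnc, the muscle filamin, averaged 32131 ± 5805 in m31 muscle and 29320.2 ± 3371 in control muscle (log2 difference 0.12; 1 left out, 0.04 without m31 replicate 3 and 0.25 without m31 replicate 4). Fermt3, the leukocyte kindlin, had the largest positive estimate, 0.51, which was 0.23 without m31 replicate 4 and 0.81 without control replicate 3.

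The choice of Bcar1, Itgb1bp1 and Parvb for mention was made once their values were known. Bcar1, the scaffold protein also called p130Cas, was above all control libraries in each m31 library, with 556 ± 22.8 normalised reads in m31 muscle against 477 ± 42.3 in control muscle (log2 difference 0.22 ± 0.09, limma's adjusted p = 0.72). Itgb1bp1, which encodes an inhibitor of beta-1 integrin activation, was below all control libraries in each m31 library, with 381 ± 18.8 in m31 muscle against 440.3 ± 37.1 in control muscle (log2 difference -0.21 ± 0.09, limma's adjusted p = 0.733). Parvb, a parvin that binds the integrin-linked kinase complex, averaged 2009 ± 223 in m31 muscle and 1696 ± 155 in control muscle (log2 difference 0.24 ± 0.10). Among the 22 tested adapters and kinases, the groups stayed apart for 1 gene higher with m31 (Bcar1) and 1 lower (Itgb1bp1). Of the 11 laminin chain genes 1 did so, Lama1, and in the remaining lists 0 did. The share of all genes whose groups stayed apart was 3.85%.

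Other laminin receptors had 5 positive and 2 negative estimates among 7 tested, with a median of 0.10. Rpsa, a ribosomal protein gene whose product is also described as a laminin receptor, had a log2 difference of -0.02 (1 left out, -0.06 and 0.02). Sdc1 and Sdc4 encode syndecans, membrane proteoglycans. Sdc1 had a log2 difference of 0.40, or 0.24 without m31 replicate 4. Sdc4 had one of -0.30, which was -0.13 without control replicate 3 and -0.50 without control replicate 1. Of 6 tested intermediate filament genes and plectin relatives, 1 had a positive and 5 a negative estimate, with a median of -0.10 (-0.02 without m31 replicate 4, over 5 genes still tested). Des, encoding desmin, the fibre's main intermediate filament protein, averaged 111377 ± 2540.1 normalised reads in m31 muscle and 112292 ± 7023 in control muscle (log2 difference -0.01; 1 left out, -0.06 and 0.01). Vim had the positive estimate (0.18, and 0.02 without m31 replicate 4). Krt18, at 1.90, 3.59, 10 and 16 in m31 replicates 1 to 4 and 8.37, 7.63, 29.2 and 8 in control replicates 1 to 4, passed the minimum mean of 10 only through its highest libraries and was not tested once m31 replicate 4 or control replicate 3 was left out. Its estimate, -0.78, was the lowest of the list.

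The 11 laminin chain genes had 8 positive and 3 negative estimates, with a median of 0.17, or 0.42 without control replicate 3. The count and the medians include Lama1 (6.60), the gene that m31 targets. Lamb2, the most abundant by reads, had a log2 difference of 0.12 (1 left out, 0.02 without control replicate 4 and 0.19 without control replicate 2). Lamc3 had the largest negative one, -0.16, which was -0.38 without m31 replicate 4 and 0.03 without m31 replicate 1. All 6 genes listed as fibronectin and other ligands of the arginine-glycine-aspartate type had positive estimates, 0 past the threshold, with a median of 0.55. The motif itself was not checked in their mouse proteins. Without m31 replicate 4, 5 were positive and 1 negative and the median was 0.25. Fn1, encoding fibronectin, had 2976, 4453, 4559 and 19210.3 normalised reads in m31 replicates 1 to 4, and 2554, 2579, 5556 and 2291 in control replicates 1 to 4. Its mean with m31 was carried by replicate 4, and the log2 difference was 0.95 ± 0.50, or 0.37 without that library, the one with the highest tendon and macrophage marker sums, whose part in the Fn1 value was not tested.

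Spp1, encoding osteopontin, had the smallest estimate of these ligands, 0.11, which turned to -0.08 without m31 replicate 4 and -0.15 without control replicate 2, and was 0.44 without control replicate 3. Npnt, encoding nephronectin, was picked out after its values were seen, as the ligand with an unadjusted p under 0.05 in limma's fit (adjusted p = 0.647). It had 1273, 671, 624 and 1083 normalised reads in m31 replicates 1 to 4, and 291, 419, 655 and 576 in control replicates 1 to 4. All m31 libraries except replicate 3 exceeded all control libraries, and the log2 difference was 0.91 ± 0.28.

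**Figure D5:**
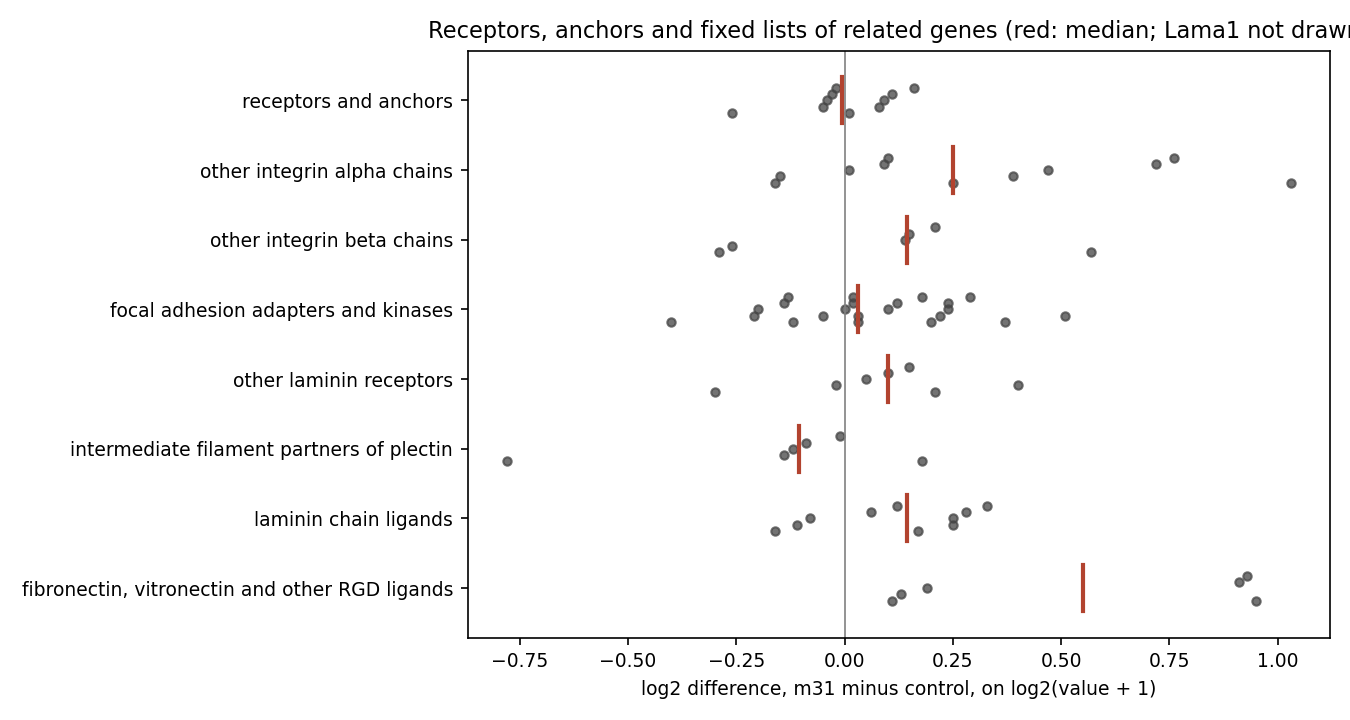
Log2 difference, m31 minus control, of each tested gene in the receptor and anchor set and in the 7 lists of related genes, from log2(value + 1) values (red bars, median of the points drawn; Lama1, at 6.60, is not drawn). The receptors and anchors lie between -0.26 and 0.16. The points of the lists run from -0.78 (Krt18, SE 0.61) to 1.03 (Itgal, SE 0.53). The ligand list at the bottom reaches 0.95 (Fn1, SE 0.50, and 0.37 without m31 replicate 4).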

How the data were processed

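RNA-seq of total RNA from 8 gastrocnemius samples was analysed, 4 per guide. Group and replicate number came from the sample titles. The deposited values are read signal normalised by size factors. STAR and DESeq2 appear in the submitters' processing notes without a version, beside the human build GRCh38.p12, although the identifiers are mouse Ensembl. The sources used here do not give the counting program, strand setting or filters. Of 11 value columns, 8 match the labelled libraries and the other 3 were not used; 5 construct entries were left out of the tests and totals. Values were whole multiples of 1 read within 0.01 (100%), so read counts were recovered. Intervals cover the spread between libraries.

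limma 3.58.1 (R 4.3.3; intensity trend, group term) was fitted to log2(value + 1) of the 15960 genes with a mean of at least 10, after a check on simulated data, with Benjamini-Hochberg adjustment over all of them. Single ratios had exact two-sided permutation tests. Alternatives included edgeR 4.0.16 and DESeq2 1.42.0 on recovered reads. Genes, lists and tests were chosen with earlier results of these data known. In each list the genes named were the most abundant, the largest positive and largest negative estimates and any past the threshold. Gene positions and exon lengths are from GENCODE M21 on GRCm38.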

Additional observations from a re-analysis of the deposited data

Results flagged for a closer look

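One value stood far from the other libraries of its group: Itgb5 in m31 replicate 4, at 2931 normalised reads. Its gap to the next library was 0.834 of the group's range, above Dixon's 95% critical value for 4 samples. Over the 30 groups examined (10 genes and 5 ratios, 2 guides each), chance flags about 1 in 20.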

How the results depend on the processing

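Under 19 alternative settings, 0 of the 10 genes passed the threshold, and the smallest adjusted p of any of them was 0.309. Of 190 alternative estimates, 168 kept their sign and 22 did not. Vcl (0.05 to 0.33), Plec (-0.39 to -0.14) and Itgb5 (-0.07 to -0.0016) kept theirs throughout. Leaving out 1 library at a time gave log2 differences of -0.06 to 0.04 for Itga7, -0.10 to 0.04 for Itga6, -0.20 to 0.07 for Itga3, -0.01 to 0.23 for Itga5, -0.06 to 0.22 for Itgav, -0.05 to 0.09 for Itgb1 and -0.02 to 0.17 for Bcam. Signs also turned with quantile normalisation (Itga7, 0.0048), recentring on library medians (Itgb1, -0.02) and library weights (Itga3, 0.08; Bcam, -0.0008). Without both m31 replicate 4 and control replicate 3, an alternative chosen after seeing the data, Itga6, Itga3 and Bcam stood at 0.05, 0.15 and -0.0046 and the ratio of Itga7 to Itga6 at -0.05. The cause was not tested. Leaving out 1 library at a time, the ratio of Itga7 to Itgb1 ranged from -0.12 to 0.06, Itga7 to Itga6 from -0.10 to 0.14 and Itgb5 to Itgb1 from -0.12 to 0.02 on the log2 scale.

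Same-numbered libraries did not deviate together (correlations of 0.046, -0.047, -0.125 and -0.184), and those of differently numbered libraries ran from -0.179 to 0.224. With deviations taken from the mean of 4 libraries per group, these values cannot show whether the numbers pair the samples. With the replicate block, 0 of the 10 genes and 1 gene overall passed, as without it, and Lama1 kept its log2 difference of 6.60. Over the whole table limma called 1 gene, DESeq2 called 31, and limma called 2 without m31 replicate 1 or without control replicate 4, and 3 without both m31 replicate 4 and control replicate 3.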
